A study of Mus musculus with 12 samples.

Results

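The comparison set colonic adenomas of ApcMin mice that carry 1 TdgN151A allele against adenomas of ApcMin mice with both Tdg alleles wild type. Libraries were assigned by the genotype in the labels, which put 6 of the 12 libraries among the carriers and 6 among the Tdg wild types. The carriers were 3 double-heterozygous samples (Tet1+/- TdgN151A/+) and 3 Tdg-heterozygous samples (Tet1+/+ TdgN151A/+). The Tdg wild types were 3 Tet1-null samples (Tet1-/- Tdg+/+) and 3 control samples (Tet1+/+ Tdg+/+). All 12 were C57BL/6J mice heterozygous for ApcMin, killed at 150 to 160 days, and every carrier kept 1 wild-type Tdg allele. Tet1 was therefore not equal on the 2 sides. It was wild type in both groups of the pair Tdg-heterozygous and control, and it had 1 copy against 0 in the pair double-heterozygous and Tet1-null, where the effects of the 2 loci cannot be told apart. Nothing in the labels ties each sample to a mouse of its own, so p-values measure the spread between these samples, which may be technical.

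Tdg encodes thymine DNA glycosylase, which removes thymine or uracil opposite guanine and also removes 5-formylcytosine and 5-carboxylcytosine, the bases that TET enzymes make from 5-methylcytosine. Base excision repair then puts back an unmodified cytosine, so TET proteins and TDG act one after the other in active DNA demethylation. N151A replaces an asparagine of the catalytic site with alanine. ApcMin is a truncating allele of Apc, a component of the complex that degrades beta-catenin, and mice with it develop intestinal adenomas in which Wnt target genes are high.

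Expression was measured by RNA sequencing and given in FPKM, which counts fragments relative to the length of a transcript and the size of the library. Of 25705 genes in the table, 15150 reached 1 FPKM in at least 3 libraries and were tested, 13004 of them protein-coding. Summed FPKM ran between 663551 and 977282 per library, and 13692 to 14384 genes reached 1 FPKM. The files give no read counts, so the depth is unknown. All 10 epithelial markers and 20 of the 22 colonocyte markers passed the filter. Levels of Wnt target genes, averaged over 27 tested genes and centred on the mean of the 12 libraries, were low in 1 library each of the double-heterozygous group (-0.37), the Tdg-heterozygous group (-1.34) and the Tet1-null group (-2.30). The other 9 libraries lay between 0.26 and 0.70. Several results are also given without these 3 libraries. Xist, the RNA that marks the inactive X chromosome, was above 10 FPKM in 2 of 6 carriers, both Tdg-heterozygous, and in 3 of 6 Tdg wild types, so the sexes were mixed on both sides.

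The clearest differences between carriers and Tdg wild types were in 2 processed pseudogenes, intronless genomic copies of a messenger RNA. Gm9855, which RefSeq lists as Tdg-ps2, lies on chromosome 10 (mm10, chr10:42054113-42055306, minus strand) and is annotated as a processed pseudogene. It is a copy of Tdg itself, which lies on the same chromosome (chr10:82629828-82650799). Gm15920, listed as Ndufa12-ps, lies on chromosome 5 (chr5:130188395-130188796). It is a copy of Ndufa12, which encodes a subunit of respiratory complex I and lies 11.5 Mb from Tdg (chr10:94198720-94221443). The sequences are shown because each copy differs from its gene at only a few bases. Over its 1194 nt, Gm9855 differed from the Tdg transcript at 9 positions, an identity of 99.25%. Counted from 1 at the 5′ end of the pseudogene, with the base of the gene first, the substitutions were A98C, A855G, G877A, G879C, T993C, T1056C, G1084A, A1090G and G1101A. Over its 402 nt, Gm15920 differed from Ndufa12 at A99G and T378C, an identity of 99.5%. Capitals in the first 6 sequences mark the substituted bases, and the sequences are of the reference strain from GENCODE M21 transcripts (GRCm38).
Tdg: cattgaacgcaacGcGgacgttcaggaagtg
Gm9855: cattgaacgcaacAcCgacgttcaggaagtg
Ndufa12: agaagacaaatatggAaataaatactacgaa
Gm15920: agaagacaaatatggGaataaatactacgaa
Ndufa12: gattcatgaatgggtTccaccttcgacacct
Gm15920: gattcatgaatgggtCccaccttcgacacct
The N151A codon is shown next, in capitals, in the 421-codon reading frame of Tdg, where it is AAC, asparagine. The pseudogene has the same bases there.
Tdg: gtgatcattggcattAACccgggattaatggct
Gm9855: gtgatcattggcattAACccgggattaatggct
FPKM values carry no base calls, so the allele itself was not read here. How the authors' counting divided 75-nt reads between a gene and a nearly identical copy is not given in the sources used here, and the values of both pseudogenes are uncertain for that reason.

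Gm9855 was detected in every carrier and was near 0 in every Tdg wild type. It stood at 8.07, 7.72 and 7.62 FPKM in double-heterozygous adenomas, against 0, 0 and 0 FPKM in Tet1-null adenomas. In Tdg-heterozygous adenomas it stood at 7.27, 6.96 and 7.10 FPKM, against 0.0187, 0 and 0.0434 FPKM in controls. The lowest carrier lay far above the highest Tdg wild type, and the 2 carrier groups lay close together. On the log2(FPKM + 1) scale, which understates the change of low genes, the difference was 3.06 with a standard error of 0.0935 (limma, adjusted p = 2.35e-07). The difference was 3.14 between double-heterozygous and Tet1-null adenomas and 2.99 between Tdg-heterozygous and control adenomas, and both passed on their own (limma, adjusted p = 5.77e-06 and 9.26e-06).

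Gm15920 showed the same separation. It stood at 9.31, 9.75 and 11.9 FPKM in double-heterozygous adenomas, against 0.281, 0.259 and 0.533 FPKM in Tet1-null adenomas. In Tdg-heterozygous adenomas it stood at 12.7, 9.74 and 11.8 FPKM, against 0.258, 0.277 and 0 FPKM in controls. No carrier overlapped a Tdg wild type. The log2 difference was 3.23 with a standard error of 0.127 (limma, adjusted p = 1.47e-06), 3.06 for double-heterozygous against Tet1-null and 3.40 for Tdg-heterozygous against control. Both pseudogenes reached 1 FPKM in carriers alone, so they passed the filter only through the side where they are high. Both stayed past the threshold in every alternative run in which they passed the filter, 25 of 25 for Gm9855 and 26 of 26 for Gm15920. These runs reused the same libraries, so they are not independent evidence.

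The genes that the pseudogenes copy did not separate the groups. Tdg stood at 40.1, 36.6 and 35.4 FPKM in double-heterozygous adenomas and at 25.8, 29.8 and 30.7 FPKM in Tdg-heterozygous adenomas, against 39.6, 30.9 and 29.8 FPKM in Tet1-null adenomas and 29.9, 37.9 and 34.8 FPKM in controls. Its log2 difference over all libraries was -0.04 with a standard error of 0.103 (exact permutation test over 924 arrangements of the group labels, two-sided, p = 0.745, and 0.745 after adjustment over the 9 genes tested this way). It was 0.16 for double-heterozygous against Tet1-null and -0.24 for Tdg-heterozygous against control. N151A leaves the transcript in place, so the level of Tdg does not check the genotype labels. Ndufa12 stood at a lowest, median and highest level of 101, 127 and 134 FPKM in carriers, against 96.5, 129 and 148 FPKM in Tdg wild types, and the groups overlapped throughout. Set beside its own gene within a library, Gm9855 was at 20.1% to 28.2% of the Tdg level in carriers and at 0% to 0.125% in Tdg wild types. Gm15920 was at 7.46% to 9.63% of the Ndufa12 level in carriers and at 0% to 0.434% in Tdg wild types.

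**Figure D1:**
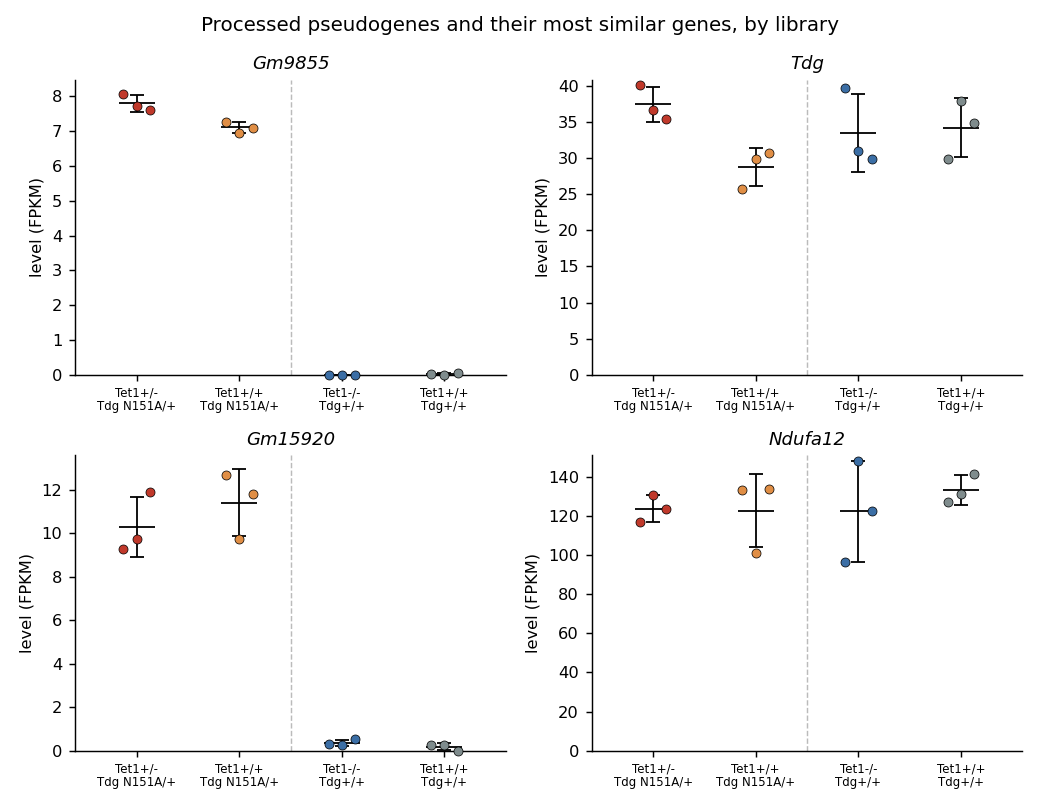
Levels in FPKM of the pseudogenes Gm9855 and Gm15920 beside the genes they copy, Tdg and Ndufa12, in each library (points), with the mean and SD of each group of 3. The carriers, left of the dashed line, sit between 6.96 and 8.07 FPKM for Gm9855 while the Tdg wild types reach at most 0.0434 FPKM, and the levels of Tdg overlap.

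Most pseudogenes whose most similar gene lies around Tdg did not show such a difference. Of the 321 pseudogenes tested, 13 had their most similar gene within 20 Mb of Tdg. That gene was the best match by alignment, and not all of the 13 are full or close copies of it. Gm10040, Gm12424, Gm14654, Gm17131 and Gm9864 all matched D10Wsu102e, at 87.94% to 96.78% identity. Gm12424 aligned over 218 of 447 nt, and 1810014B01Rik aligned to its gene over 621 of 1661 nt. Of these 13, Gm9855 and Gm15920 were called and did not overlap between the groups. Over all genes tested, 0.0198% were called and 0.0528% did not overlap. The 13 were grouped with earlier results of these data known, so no test was made of their share. The other 11 included Mif-ps (Gm10169), which is as close a copy of its gene, the cytokine Mif, with 99.14% identity, and whose log2 difference was 0.04 (limma, unadjusted p = 0.882). Of the 265 pseudogenes with their most similar gene elsewhere, none was called by limma, nor was any of the 43 with no similar transcript.

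Few other genes differed. Limma called 3 of 15150 genes between carriers and Tdg wild types at an adjusted p under 0.05, 0.0198% of those tested, of which 2 were higher (0.0132%) and 1 lower (0.0066%). None of the 3 was protein-coding, and the count was 6 without control library 1 and 6 without the 3 libraries low in Wnt targets. At an unadjusted p under 0.05 there were 153 genes (1.01%), with 96 higher (0.634%) and 57 lower (0.376%), and at an unadjusted p under 0.01 there were 32 (0.211%). In 144 of the 153 the 2 pairs of groups differed in the same direction, which the choice of genes by their pooled p favours. In simulated data with 15150 genes, this design and normally distributed noise, the test recovered 66% of 50 genes changed by 2-fold. It recovered 86% of 50 genes changed by 4-fold, and 14 unchanged genes were called. The lowest genes were left out of the changed set, and the many planted changes made the adjusted threshold easier to pass. These shares therefore do not give the share of changes found in the real data, least of all for low genes. Among the 153 were 74 protein-coding genes (0.569% of the protein-coding genes tested) and 36 small RNAs (7.3% of the 493 tested).

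The third called gene, Gm25390, is a small nuclear RNA gene on chromosome 10 (chr10:91005741-91005843). It was listed at 0 in all 6 carriers and in all 3 controls, and at 45.7, 21.3 and 20.6 FPKM in the Tet1-null adenomas. It separated the Tet1-null group from the rest and not carriers from Tdg wild types, although the pooled contrast called it (log2 difference -2.41, standard error 0.189, limma adjusted p = 0.000791). With the 12 libraries fitted as 2 groups of 6, its adjusted p was 1. It was the 1 gene called (0.0066%) for the difference between the pair of groups with Tet1 wild type and the pair with Tet1 mutant, 4.82 on the log2 scale (limma, adjusted p = 0.00237). That limma adjusted p was 0.0607 with a pseudocount of 5 and 0.0766 without the 3 libraries low in Wnt targets. With a mean FPKM of at least 5 it was 0.9999. Gm25390 passed the filter through the Tet1-null libraries alone, and all its other values were 0. Gm22692, a microRNA gene on chromosome 2 (chr2:165908051-165908175), was called between Tdg-heterozygous and control adenomas (log2 difference 3.07, limma adjusted p = 0.0487) and not over all libraries (log2 difference 1.42, limma adjusted p = 0.808). It was at 5.78, 7.26 and 9.65 FPKM in Tdg-heterozygous adenomas and listed at 0 in controls, and at 7.14, 7.19 and 13.5 FPKM in double-heterozygous adenomas against 7.42, 20.8 and 7.45 FPKM in Tet1-null adenomas. Of its 9 values above 0, 5 lay between 7.14 and 7.45 FPKM. The call was lost when any library of either group was left out (adjusted p between 0.183 and 0.335).

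The 2 pairs of groups share no library, so their values are separate measurements. They do not compare the same thing, since Tdg-heterozygous against control differs at Tdg alone and double-heterozygous against Tet1-null differs at both loci. Limma called 3 genes (0.0198%) between double-heterozygous and Tet1-null adenomas, which were Gm9855, Gm15920 and Gm25390. At an unadjusted p under 0.05 there were 275 (1.82%), 165 higher (1.09%) and 110 lower (0.726%) in double-heterozygous adenomas. Between Tdg-heterozygous and control adenomas it called 3 (0.0198%), which were Gm9855, Gm15920 and Gm22692. At an unadjusted p under 0.05 there were 136 (0.898%), 67 higher (0.442%) and 69 lower (0.455%) in Tdg-heterozygous adenomas. An unadjusted p under 0.05 in both pairs was found in 12 genes. They made up 4.36% of the 275 and 8.82% of the 136, against 0.898% and 1.82% over all genes. The 2 p-values of a gene share 1 estimate of its spread, so they are not independent. In 6 of the 12 the direction was the same. These were Gm9855, Gm15920, Hal, the immunoglobulin segment Igkv4-79, the small RNA Gm22661 and 4833420G17Rik, and all 6 were higher in carriers. Of these 6, all but 4833420G17Rik reached 1 FPKM in carriers alone and passed the filter through them. In the other 6 (Agt, Snord7, Gm13919, Gm22993, Gm23413 and Ighv1-76) the direction was opposite. The 12 were named after their values were seen. Over all 15150 genes the log2 differences of the 2 pairs correlated weakly and negatively (Pearson's r = -0.113, Spearman's rho = -0.114, across genes, which are not independent replicates), and 45.5% of genes had the same sign in both.

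The difference between the 2 pairs of groups, taken as Tdg-heterozygous minus control less double-heterozygous minus Tet1-null, had an unadjusted p under 0.05 in 260 genes (1.72%), 96 of them positive (0.634%) and 164 negative (1.08%). Agt, the precursor of angiotensin, was among them. It stood at 13.1, 6.17 and 10.3 FPKM in double-heterozygous adenomas against 2.82, 6.90 and 4.18 FPKM in Tet1-null adenomas. In Tdg-heterozygous adenomas it stood at 5.13, 6.61 and 4.22 FPKM against 14.2, 8.74 and 8.29 FPKM in controls. The log2 differences were 0.96 and -0.83, and the difference between them had an unadjusted p of 0.00359 (limma, not past adjustment). Other genes with the smallest p for such a difference were Lyz1, a lysozyme of Paneth cells, the immunoglobulin segment Ighv1-76, Wdr62, a centrosome protein, Mpp3 and Scgb2b17. Their unadjusted p lay between 0.0014 and 0.00452, and none passed adjustment.

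A pair of neighbouring genes on chromosome 10 had a small p without passing adjustment. Hal encodes histidine ammonia-lyase, the first enzyme of histidine breakdown (chr10:93488768-93519304). It was low everywhere, at 2.21, 1.19 and 0.542 FPKM in double-heterozygous adenomas and 1.46, 1.59 and 1.28 FPKM in Tdg-heterozygous adenomas, against 0.0787, 0 and 0.149 FPKM in Tet1-null adenomas and 0.0737, 0.0747 and 0.0581 FPKM in controls. Every carrier was above every Tdg wild type, but Hal reached 1 FPKM in carriers alone and so passed the filter only through them. The log2 difference was 1.12 with a standard error of 0.174 (limma, unadjusted p = 7.6e-05, adjusted p = 0.288), with 1.04 for double-heterozygous against Tet1-null and 1.19 for Tdg-heterozygous against control. Its adjusted p passed in 1 of 26 alternatives, 0.0466 without double-heterozygous library 2, where the log2 difference was 1.25.

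Lta4h, which encodes leukotriene A4 hydrolase, the enzyme that makes leukotriene B4, lies beside Hal (chr10:93453411-93484875). It stood at 54.0, 63.8 and 73.1 FPKM in double-heterozygous adenomas against 79.5, 93.7 and 64.3 FPKM in Tet1-null adenomas, where the groups overlapped. In Tdg-heterozygous adenomas it stood at 61.9, 53.6 and 67.1 FPKM against 97.4, 117 and 98.0 FPKM in controls, with no overlap. The log2 difference over all libraries was -0.53 with a standard error of 0.12 (limma, unadjusted p = 0.00125, adjusted p = 1), -0.30 for double-heterozygous against Tet1-null and -0.76 for Tdg-heterozygous against control. From 2 Mb before Lta4h to 2 Mb after Ndufa12, 24 genes were tested. The 18 protein-coding genes among them other than Hal and Lta4h had log2 differences between -0.21 and 0.30, and limma gave none of them an unadjusted p under 0.05. The other 4 were noncoding. Among these Gm24241 passed that level with a log2 difference of -2.21 (limma, unadjusted p = 0.00444) and RMST_10, at 1.51, did not. Hal and Lta4h are adjacent, and Hal was higher and Lta4h lower in carriers.

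Upb1, the last enzyme of pyrimidine breakdown, lies on the other side of Tdg (chr10:75401115-75441679) and was looked at because earlier results of these data named it. It stood at a lowest, median and highest level of 2.19, 3.70 and 6.11 FPKM in carriers, against 1.86, 5.96 and 9.50 FPKM in Tdg wild types. The groups overlapped, since the high values were those of the controls and the Tet1-null adenomas were as low as the carriers. Its log2 difference was 0.40 for double-heterozygous against Tet1-null and -1.13 for Tdg-heterozygous against control.

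**Figure D2:**
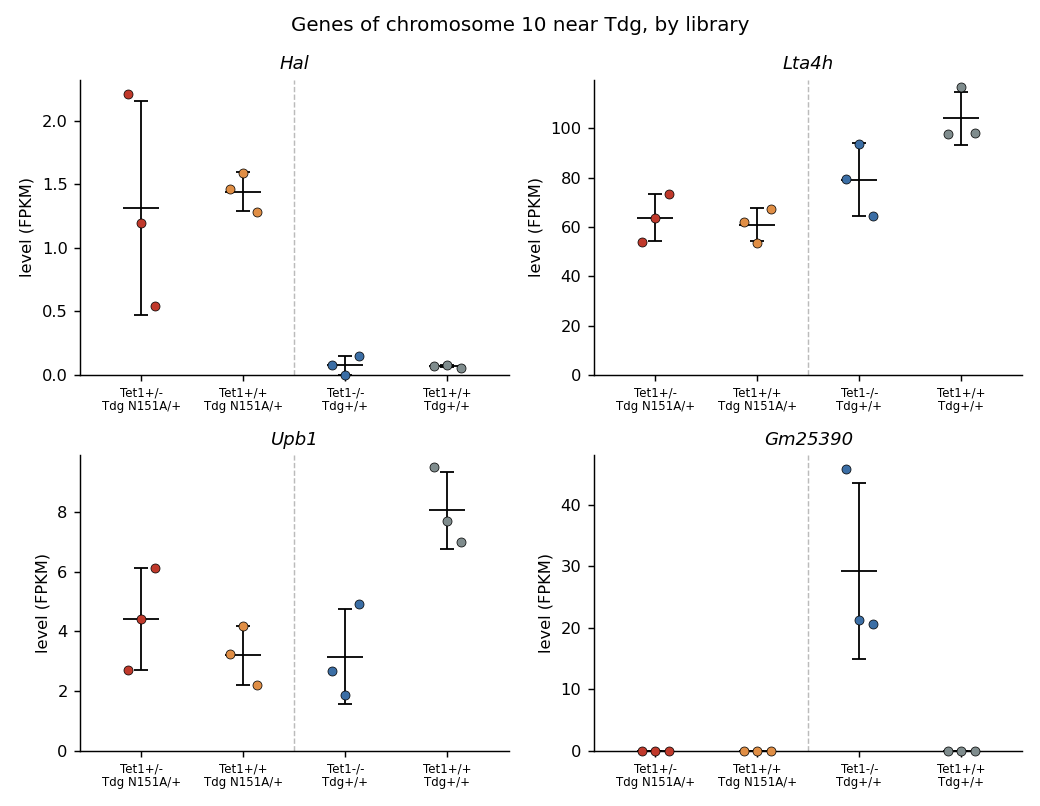
Levels in FPKM of Hal, Lta4h, Upb1 and Gm25390 in each library (points), with the mean and SD of each group of 3. All carriers, left of the dashed line, have more Hal than any Tdg wild type, from 0.542 FPKM against at most 0.149 FPKM, while Upb1 is high in the controls alone and Gm25390 is above 0 in the Tet1-null group alone.

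Around Tdg, genes with a small p lay at a distance from the gene itself. Within 5 Mb of Tdg, 159 genes were tested and 0 had an unadjusted p under 0.05 or passed adjustment (limma). Within 10 Mb it was 1 of 230 (0.435%), and within 20 Mb 4 of 293 (1.37%), against 4 of 379 on the rest of chromosome 10 (1.06%), 1.01% over all genes and 0.47% to 1.38% on the 18 other autosomes. The 4 were Gm25390, Hal, Lta4h and the small nucleolar RNA gene Gm24241. All 4 also had an unadjusted p under 0.01, a share of 1.37%, against 2 of 379 on the rest of chromosome 10 (0.528%) and 32 of 15150 over all genes (0.211%). The highest such share on another autosome was 4 of 558 on chromosome 12 (0.717%). Of the 4, 2 were small RNA genes, and the window around Tdg was chosen with earlier results known, so no test was made of this share. The median size of the log2 difference, regardless of sign, was 0.08 within 20 Mb and 0.09 over all genes. Gm24241 was listed at 0 in all 6 carriers. It was at 7.68, 7.27 and 7.36 FPKM in Tet1-null adenomas and at 0, 15.1 and 0 FPKM in controls, so 2 of the Tdg wild types were also at 0. The number of genes at an unadjusted p under 0.05 within 20 Mb depended on single libraries, and the share over all genes moved with it. It was 13 without Tet1-null library 1 (4.44%, against 2.59% of all genes) and 8 without Tet1-null library 0 (2.73%, against 1.37%). Without the 3 libraries low in Wnt targets it was 10 (3.41%, against 2.33%).

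**Figure D3:**
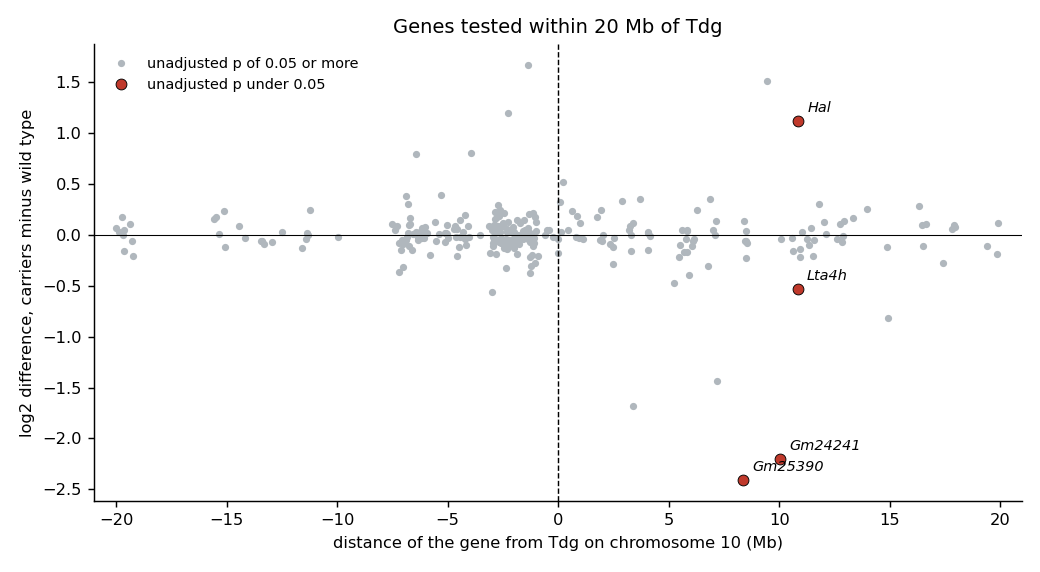
Log2 difference of carriers minus Tdg wild types for the 293 genes tested within 20 Mb of Tdg, against their distance from Tdg in Mb. Red points are the 4 genes with an unadjusted p under 0.05, all at more than 5 Mb from Tdg, and most other genes lie close to 0.

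In only 8 genes (0.0528%) did all 6 carriers lie on one side of all 6 Tdg wild types, 7 higher (0.0462%) and 1 lower (0.0066%). Besides Gm9855, Gm15920 and Hal, the higher ones were Igkv4-79, the small nucleolar RNA Snord22, 4930523C07Rik and Gm13251, the last 2 named after their values were seen. Snord22 stood at 110, 132 and 205 FPKM (lowest, median and highest) in carriers, against 34.7, 78.0 and 109 FPKM in Tdg wild types, a log2 difference of 0.97 (limma, unadjusted p = 0.00483). Igkv4-79 stood at 0.874, 1.46 and 4.07 FPKM in carriers and was listed at 0 in 5 of 6 Tdg wild types, with 0.659 FPKM in Tet1-null library 1. Gm9855, Gm15920, Hal and Igkv4-79 reached 1 FPKM in carriers alone, so they passed the filter through the side where they are high. The lower gene was Cln8, which encodes a membrane protein of the endoplasmic reticulum that carries lysosomal enzymes toward the Golgi. It stood at 4.72, 5.51 and 5.79 FPKM in carriers, against 5.90, 6.78 and 7.23 FPKM in Tdg wild types. Its log2 difference was small, -0.26 with a standard error of 0.0882 (limma, unadjusted p = 0.014, adjusted p = 1), and about equal in both pairs of groups (-0.25 for double-heterozygous against Tet1-null and -0.27 for Tdg-heterozygous against control).

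The other named genes with the smallest p had more overlap between the groups, and none passed adjustment. Higher in carriers were the antibody segments Ighv9-1, Igkv3-12 and Ighv1-80, with log2 differences of 1.66, 1.51 and 0.92. Of the 181 immunoglobulin and T cell receptor segments tested, 6 had an unadjusted p under 0.05 (3.31%, against 1.01% of all genes). Of these 6, 4 were higher and 2 lower, and of all 181 segments 113 were higher. Such segments share near-identical stretches that single-end reads may not tell apart. Also higher were Chi3l3, a chitinase-like protein of macrophages (2.52), Prss41, a serine protease (1.05), Chodl (0.94), the small nucleolar RNA Snora68 (0.87), Aste1 (0.44) and Slc16a11, a monocarboxylate transporter family member (0.43). Chi3l3 spread widely, with 2.25, 19.3 and 40.03 FPKM (lowest, median and highest) in carriers against 0.498, 1.03 and 4.71 FPKM in Tdg wild types. Lower in carriers were Aif1, which marks macrophages (-0.73), the T cell receptor constant segment Tcrg-C1 (-0.64) and the natural killer receptor Klrb1b (-0.60), Lpl, lipoprotein lipase (-0.50), Ncoa7 (-0.52), Asb2 (-0.49), Pbx3, a homeodomain cofactor (-0.47), Emc9 (-0.44), Hebp1 (-0.41) and the segment Ighv1-75 (-1.07). For Hebp1 this held in 1 pair alone, with -0.87 for double-heterozygous against Tet1-null and 0.05 for Tdg-heterozygous against control, while the other genes of both directions had the same sign in both pairs. Unadjusted p ran between 0.000289 and 0.0278 over these genes. Aif1 stood at 5.83, 8.04 and 15.99 FPKM in carriers against 10.1, 14.3 and 23.8 FPKM in Tdg wild types. In whole adenomas, fewer cells of a type and less RNA per cell cannot be told apart.

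Genes of DNA demethylation and base excision repair, the pathway in which Tdg acts, had close to equal levels on both sides. None of the 29 tested members, Tdg among them, was called by limma (0.0198% of all genes were called), and none had an unadjusted p under 0.05. Log2 differences ran between -0.26 and 0.29, with 7 members higher and 22 lower and a median of -0.04, against 7855 higher and 7295 lower and a median of 0.01 over all genes tested. Tet1, which makes the first oxidation product of 5-methylcytosine, was below the filter. It stood at 0.127, 0.345 and 0.492 FPKM (lowest, median and highest) in carriers against 0.163, 0.412 and 0.621 FPKM in Tdg wild types (exact permutation test, two-sided, p = 0.647, and 0.73 after adjustment over the 9 genes tested this way). Its relatives Tet2 and Tet3 differed by 0.05 and -0.08. The glycosylases Mbd4 and Smug1, which act on some of the same mismatches as Tdg, differed by -0.03 and 0.04. Ogg1, the glycosylase for oxidised guanine, differed by 0.18. Parp1, a sensor of strand breaks, had the lowest value (-0.26), and Gadd45a, an adaptor linked to demethylation, the highest (0.29).

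The 17 tested genes of DNA methylation were also without a call, with 4 higher, 13 lower, a median of -0.08 and 0 called by limma or at an unadjusted p under 0.05. The maintenance methyltransferase Dnmt1 stood at 12.9, 16.6 and 19.6 FPKM in carriers against 13.4, 16.6 and 25.6 FPKM in Tdg wild types. Its partner Uhrf1, which recruits it to replicated DNA, differed by -0.03 on the log2 scale. The de novo methyltransferases Dnmt3a and Dnmt3b differed by -0.29 (unadjusted p = 0.133) and -0.18 (unadjusted p = 0.438). Cxxc5, a protein that binds unmethylated CpG, differed by -0.38 (limma, unadjusted p = 0.267). Imprinted genes, whose expression from 1 parental allele depends on DNA methylation, had 12 of 31 members higher, 19 lower, a median of -0.03 and 0 called by limma or at an unadjusted p under 0.05. Sgce and H19 had the smallest p among them, with log2 differences of -0.35 and -0.51. Apc, the gene mutated in all samples, differed by 0.04. Several of these values near 0 changed sign in other settings.

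Retinoic acid genes and Hox genes, which depend on coactivators and nuclear receptors that Tdg binds, were also without a call. Of 16 retinoic acid genes 11 were higher and 5 lower, with a median of 0.15, and Rara, a retinoic acid receptor, and Cyp26b1, which degrades retinoic acid, differed by 0.17 and 0.30. Of 20 Hox genes 11 were higher and 9 lower, with a median of 0.04, and Hoxa10 and Hoxb6 differed by -0.33 and -0.38. The retinoic acid median was -0.09 for double-heterozygous against Tet1-null and 0.24 for Tdg-heterozygous against control, and the Hox median 0.15 and -0.05. Without the 3 libraries low in Wnt targets the median was -0.05 for Hox genes and 0 to 2 decimals for retinoic acid genes. Of the 15 coactivators and nuclear receptors that bind Tdg, 7 were higher and 8 lower.

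Several lists leaned almost wholly to one side without any member being called. Over all genes tested, 51.8% were higher in carriers and 1.01% had an unadjusted p under 0.05. Neutrophil markers had 19 of 22 tested members higher in carriers and a median log2 difference of 0.87, and 3 had an unadjusted p under 0.05. These were Mmp8, a neutrophil collagenase, Retnlg, a secreted resistin-like protein, and Ngp, a granule protein, with log2 differences of 1.74, 2.42 and 1.80. Retnlg stood at 373, 17.7 and 29.9 FPKM in double-heterozygous adenomas against 19.4, 120 and 2.94 FPKM in Tet1-null adenomas, and at 52.5, 109 and 385 FPKM in Tdg-heterozygous adenomas against 9.79, 16.9 and 9.92 FPKM in controls. The highest values were those of double-heterozygous library 0 and Tdg-heterozygous library 2, which were also 2 of the 3 libraries low in Wnt targets. Without those 3 libraries the median of the list was 0.02. Over all libraries it was 0.18 for double-heterozygous against Tet1-null and 1.48 for Tdg-heterozygous against control. Summed over the list, neutrophil markers ran between 506 and 8593 FPKM in carriers and between 518 and 2875 FPKM in Tdg wild types.

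Inflammatory cytokines and chemokines had 29 of 30 members higher, with a median of 0.42, and the same 2 carrier libraries led. Cxcl3, a chemokine that attracts neutrophils, stood at 120, 7.59 and 2.98 FPKM in double-heterozygous adenomas and at 11.6, 14.3 and 334 FPKM in Tdg-heterozygous adenomas, against 7.49, 5.46 and 4.78 FPKM in Tet1-null adenomas and 6.91, 10.2 and 20.8 FPKM in controls. The median of the list was -0.25 without the 3 libraries low in Wnt targets. Nos2, inducible nitric oxide synthase, differed by 0.98. Fetal-like and YAP target genes had 15 of 17 members higher and a median of 0.38, with Ctgf and Cyr61, both matricellular proteins, at 0.69 and 0.46. That median was -0.09 without the same 3 libraries.

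Interferon and antigen presentation genes leaned the other way, and there 1 Tet1-null library led. Of 30 type I interferon genes 29 were lower in carriers, with a median of -0.44, and all 28 antigen presentation genes were lower, with a median of -0.37. Bst2, an antiviral membrane protein, stood at 10.4, 23.3 and 13.7 FPKM in double-heterozygous adenomas against 57.4, 14.98 and 133 FPKM in Tet1-null adenomas, and at 33.3, 21.6 and 16.9 FPKM in Tdg-heterozygous adenomas against 18.0, 32.5 and 30.6 FPKM in controls. The level of 133 FPKM was that of Tet1-null library 2, which had the highest mean of both lists. For interferon genes the median was -1.13 for double-heterozygous against Tet1-null and 0.19 for Tdg-heterozygous against control. For antigen presentation genes it was -1.16 and 0.25. The lean to lower values was seen in the pair of groups that also differ at Tet1 and was opposite in sign in the pair that differ at Tdg alone. Without Tet1-null library 2 the medians over all remaining libraries were -0.13 for interferon genes and -0.20 for antigen presentation genes, and without the 3 libraries low in Wnt targets they were -0.91 and -0.52. In the main fit H2-M3, a nonclassical class I molecule, was the only member of either list with an unadjusted p under 0.05 (log2 difference -0.28). H2-Aa, a class II chain, and Ifi27 differed by -0.87 and -0.43. With library weights, the largest of which (5.25) was that of Tet1-null library 2, the medians were -1.15 and -0.59. Bst2 and Ifi27 were then among 82 genes called by limma for double-heterozygous against Tet1-null.

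**Figure D4:**
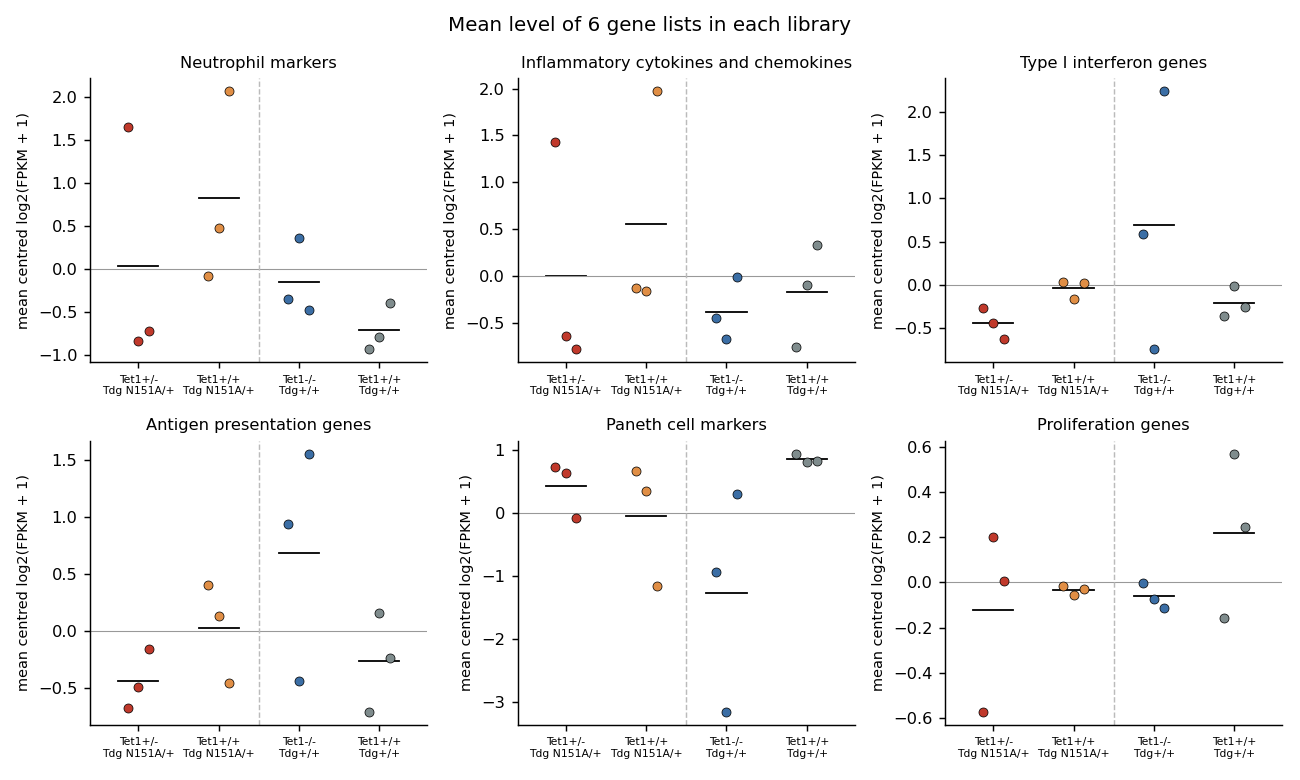
Mean level of 6 gene lists in each library, as log2(FPKM + 1) centred per gene on the mean of the 12 libraries, with the mean of each group of 3 as a line. Neutrophil and inflammatory genes are highest in 1 double-heterozygous and 1 Tdg-heterozygous library (1.66 and 2.07 for neutrophil markers), and interferon genes in 1 Tet1-null library (2.24).

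Proliferation genes had 28 of 29 members lower in carriers, with a small median of -0.14, -0.05 for double-heterozygous against Tet1-null and -0.26 for Tdg-heterozygous against control. Ube2c, a ubiquitin-conjugating enzyme of mitosis, had the smallest p (log2 difference -0.40, unadjusted p = 0.0403, limma). It stood at 40.4, 65.6 and 67.1 FPKM in carriers against 64.5, 73.4 and 107 FPKM in Tdg wild types. Birc5, survivin, differed by -0.32. The lowest mean of the list was in double-heterozygous library 0 and the highest in control library 1. With 1 library left out, the median ran between -0.26 without control library 0 and -0.03 without double-heterozygous library 0, which is low in Wnt targets. Without all 3 libraries low in Wnt targets it was also -0.03.

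Paneth cell markers had 14 of 18 members higher and a median of 0.38, but the 2 pairs of groups stood at 1.67 for double-heterozygous against Tet1-null and -0.97 for Tdg-heterozygous against control. Lyz1 stood at 2032, 1214 and 1198 FPKM in double-heterozygous adenomas against 214, 123 and 779 FPKM in Tet1-null adenomas, with no overlap. In Tdg-heterozygous adenomas it stood at 1317, 651 and 527 FPKM against 1826, 1526 and 1295 FPKM in controls. Its log2 differences of 2.38 and -0.999 differed from each other with an unadjusted p of 0.00237 (limma, not past adjustment). Ang4, an antimicrobial ribonuclease, differed by 0.74 over all libraries. Without Tet1-null library 1, whose mean of the list was the lowest, the median was -0.01. Without the 3 libraries low in Wnt targets it was 0.14.

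Wnt target genes, which the ApcMin background activates, had 13 of 27 members higher and 14 lower with a median of -0.02, and here too the 2 pairs had opposite signs, 0.44 for double-heterozygous against Tet1-null and -0.50 for Tdg-heterozygous against control. Without the 3 libraries low in Wnt targets the median was 0 to 2 decimals, and without Tet1-null library 1 alone it was -0.49. Intestinal stem cell markers had 12 of 17 members higher and a median of 0.09, with 0.31 for double-heterozygous against Tet1-null and -0.37 for Tdg-heterozygous against control, and 3 of 17 members had the same sign in both pairs.

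Among stromal and immune cell lists, macrophage and monocyte markers had 16 of 21 members lower with a median of -0.31. Mgl2, a lectin of tissue macrophages, had the smallest p (-0.78, unadjusted p = 0.0345, limma), and Ccr2, the receptor that recruits monocytes, differed by -0.31. The median was -0.37 without the 3 libraries low in Wnt targets, and over all libraries -0.50 for double-heterozygous against Tet1-null and -0.10 for Tdg-heterozygous against control. Fibroblast and collagen genes had 21 of 25 members lower with a median of -0.14, Lum and Col1a2 at -0.81 and -0.50, and a median of -0.04 without the same 3 libraries. Smooth muscle markers had 12 of 16 members lower with a median of -0.29, Synpo2 and Smtn at -0.50 and -0.30, and Tet1-null library 1 stood highest, with a median of 0.08 without it. The smooth muscle median changed sign to 0.19 without the 3 libraries low in Wnt targets. Blood cell markers had 9 of 9 members higher with a median of 0.57, but it was 0.95 for double-heterozygous against Tet1-null and -0.02 for Tdg-heterozygous against control, and 3 of 9 members had the same sign in both pairs. In that list Ppbp and Pf4, both of platelets, differed by 0.65 and 0.39, and the median was 0.20 without those 3 libraries. T and NK cell markers had 3 of 9 members higher and 6 lower with a median of -0.15, with -0.27 for double-heterozygous against Tet1-null and 0.18 for Tdg-heterozygous against control. B and plasma cell markers had 8 of 9 members higher with a median of 0.19, with Pou2af1 and Cd79a at 0.30 and 0.36. Epithelial markers had 9 of 10 members higher with a median of 0.12, with Krt18 and Cdh1 at 0.22 and 0.20, and -0.08 without the 3 libraries low in Wnt targets. For B and plasma cell markers the medians were -0.04 for double-heterozygous against Tet1-null and 0.30 for Tdg-heterozygous against control, and for epithelial markers they were -0.04 and 0.29. No member of these lists was called, and the part of unequal cell content in the differences was not tested.

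**Figure D5:**
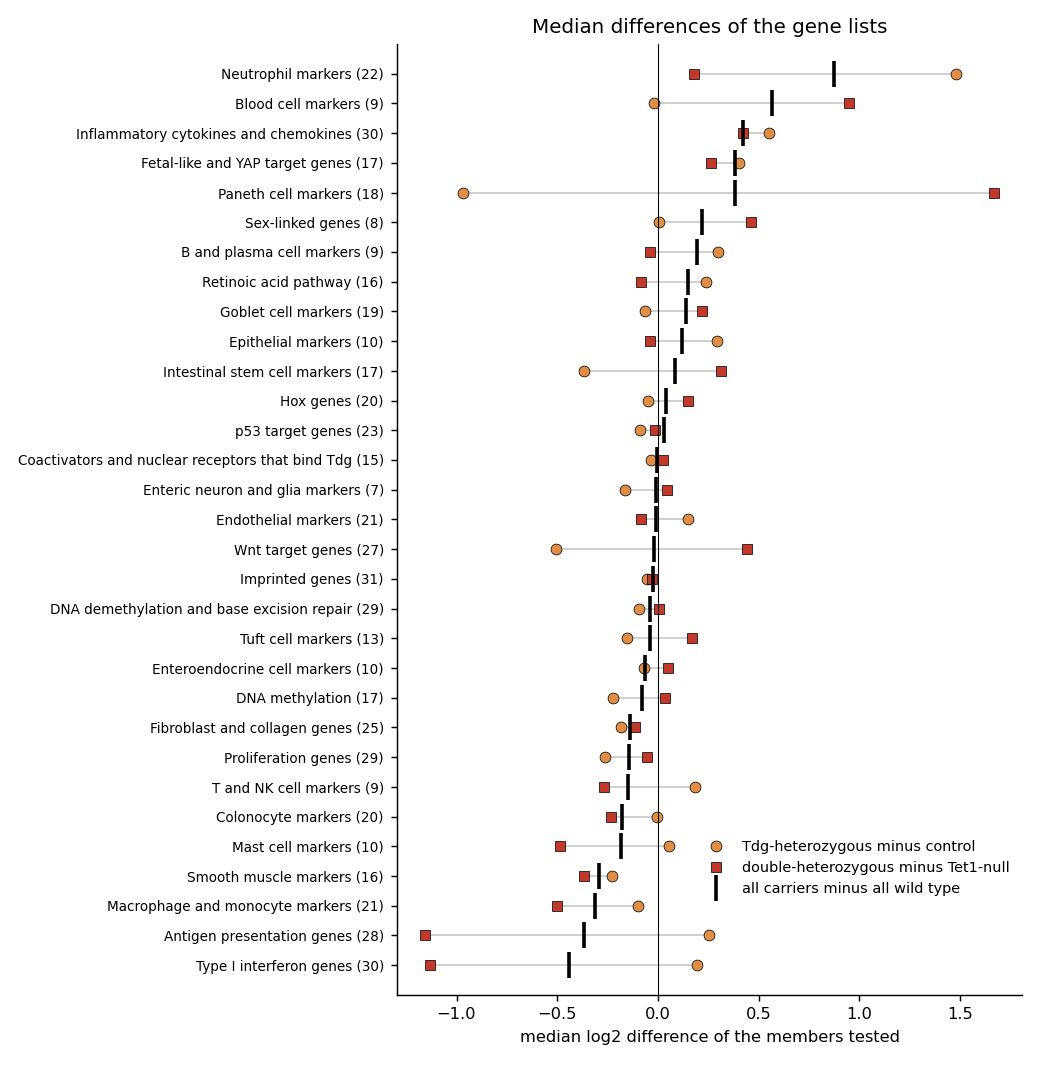
Median log2 difference of the tested members of each gene list, for double-heterozygous minus Tet1-null (squares), Tdg-heterozygous minus control (circles) and all carriers minus all Tdg wild types (bars). Neutrophil markers have the highest pooled median (0.87) and type I interferon genes the lowest (-0.44), and the 2 pairs of groups lie on opposite sides of 0 for several lists, among them Paneth, Wnt, antigen presentation and interferon genes.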

How the data were processed

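RNA of 12 adenoma samples (500 ng each) was sequenced in single-end reads of 75 nt. The labels' protocols name alignment to mm10 with TopHat2, and the submitters' processing notes name Cufflinks and Cuffdiff. Tool versions, the gene annotation, the scaling between libraries and what was done with multi-mapping reads are not given in the sources used here. The authors deposited FPKM per gene, so the depth is unknown. Columns show the group but not the labelled replicate, so libraries are numbered 0 to 2 as in the table.

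Genes with at least 1 FPKM in 3 or more libraries were fitted as log2(FPKM + 1) values, not rescaled, in limma 3.58.1 (R 4.3.3) with a variance trend and 4 group means. Carriers against Tdg wild type was the mean of the 2 carrier groups minus the mean of the 2 Tdg wild-type groups, and the difference between the pairs was tested in the same fit. P-values were two-sided and adjusted by Benjamini-Hochberg over all genes tested, with calls at an adjusted p under 0.05. Exact permutation tests used SciPy 1.17.1 on Python 3.11.15. GENCODE M21 (GRCm38) held 25119 of the 25705 gene IDs, and pseudogenes were aligned to its protein-coding transcripts with BLAST 2.17.0.

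The members, gene lists and comparisons were chosen with earlier results of these data known. Genes are named where called in any contrast, among the 12 smallest p-values in each direction, without overlap between the sides, belonging to the genotypes or to DNA methylation, near Tdg at an unadjusted p under 0.01, among the 6 smallest p-values for the difference between the pairs, or with the smallest p-values in a list. The rule allowed 3 per list. Generally 2 were named, and only for lists with at least 75% of members on one side and for the retinoic acid, Hox, imprinted and DNA repair and methylation lists, a choice made after the values were seen, as were Ndufa12, Upb1, Xist and Mif-ps. A gene that the rule names is not reported here. The fit was tested on simulated data. Replicate numbers did not pair the samples, since correlations of same-numbered deviations ran between -0.506 and 0.444 and 4 of 18 were over 0.1.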

Additional observations from a re-analysis of the deposited data

Results flagged for a closer look

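In groups of 6, 17 of 226 lists of values held a sample that stood apart from the other 5 by Dixon's test at the 95% level, and chance flags about 1 in 20 groups. Of these, 7 were Tet1-null library 1, which stood high for Igkv4-79 (0.659 FPKM), Prss41 (1.63 FPKM), Cyp26b1 (2.12 FPKM), Mmp8 (7.81 FPKM) and Synpo2 (7.84 FPKM) and low in the mean level of Wnt target genes (-2.30) and of tuft cell markers (-0.64). Tdg-heterozygous library 2 stood low for Emc9 (2.46 FPKM), Dnmt3b (1.15 FPKM) and Cxxc5 (3.26 FPKM) and high for Hoxb6 (1.96 FPKM). Double-heterozygous library 0 stood low for Uhrf1 (15.2 FPKM) and for proliferation genes (-0.57) and high for Ogg1 (22.2 FPKM). Control library 1 stood high for Uhrf1 (38.2 FPKM), Tet1-null library 2 for Ifi27 (125 FPKM) and double-heterozygous library 2 for Cd79a (5.29 FPKM).

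For Gm25390 the 2 pairs of groups differed by 4.82 on the log2 scale (limma, adjusted p = 0.00237), and it was above 0 in the Tet1-null libraries alone. The difference passed in 21 of 24 alternatives.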

How the results depend on the processing

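The FPKM table gives no depth, which limits what can be said of genes at low level and of short RNA genes. Results were recomputed under 27 other settings. Over these, 3484 values kept their direction and their side of the threshold, 50 counts or values moved, 60 changed sign, 23 fell short of the threshold and 6 newly passed it. Among the 3 genes called over all libraries, Gm15920 passed in 26 of 26 alternatives, Gm9855 in 25 of 25 and Gm25390 in 23 of 26, and Lta4h passed in 0 of 27. The causes were not tested.

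Genes called between carriers and Tdg wild types numbered 5 with no filter, 1 with a mean FPKM of at least 5, 6 with library weights, 0 among protein-coding genes only, 6 without the 3 libraries low in Wnt targets, and 3 to 6 with 1 library left out (6 without control library 1). For double-heterozygous against Tet1-null they numbered 5, 1, 82, 0 and 8 in the same order, and 3 to 5 with 1 left out (5 without Tet1-null library 0 or 2). For Tdg-heterozygous against control they numbered 1 with a mean FPKM of at least 5, 0 among protein-coding genes, 6 without the 3 libraries, and 2 to 5 with 1 left out (5 without Tet1-null library 2). For the difference between the pairs they numbered 2 with a pseudocount of 0.1 or no filter, 0 with a pseudocount of 5, a mean FPKM of at least 5, protein-coding genes only or without the 3 libraries, and 1 to 2 with 1 left out (2 without Tet1-null library 2, double-heterozygous library 1, or control library 0 or 1). Genes near Tdg at an unadjusted p under 0.05 numbered 2 with a mean FPKM of at least 5 (0.917%, against 0.712% of all genes). Among protein-coding genes only they numbered 2 (0.746%, against 0.584%). With library weights they numbered 27 (9.22%, against 8.31%), with 2 groups 8 (2.73%, against 1.1%). With Tet1 copies as a term they numbered 7 (2.39%, against 1.03%). Without the 3 libraries they numbered 10 (3.41%, against 2.33%), and with 1 left out 4 to 13. Listed genes at that p numbered 3 with a mean FPKM of at least 5, 101 with library weights and 39 without the 3 libraries. The share of all genes at that p was 0.712%, 8.31% and 2.33% in the same order. With 1 library left out, listed genes numbered 1 to 56 (56 without Tet1-null library 1), against 6 in all libraries. The share of all genes was 2.59% without Tet1-null library 1 and 1.01% in all libraries. The fits with 2 groups gave no value for the separate pairs. The replicate block, by column number, left the count for carriers against Tdg wild types at 3, and Gm22692 for Tdg-heterozygous against control had an adjusted p of 0.202 with it (limma).

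Values near 0 changed sign. With library weights the log2 differences were -0.0386 for Tet2, 0.0177 for Tet3, 0.0603 for Mbd4, 0.0709 for Dnmt1, 0.0539 for Uhrf1, -0.16 for Cyr61, -0.495 for Ang4, -0.19 for Krt18, -0.19 for Cdh1 and -0.132 for Nos2. Without the 3 libraries low in Wnt targets they were -0.182 for Tet2, -0.0755 for Apc, 0.114 for Mbd4, 0.056 for Uhrf1, -0.108 for Cyr61, -0.112 for Ang4, -0.0881 for Krt18, -0.113 for Cdh1, -0.0518 for Cxcl3, 0.0125 for Ndufa12 and 0.0064 for Tet1. With all libraries at the same total, Apc was at -0.00645 and Smug1 at -0.0016, and with a term for Xist, Apc was at -0.000776 and Agt at -0.0047. With Tet1 copies as a term, Ighv1-76 was at 0.181 and Agt at -0.0738, and with a pseudocount of 0.1, Ighv1-76 was at 0.0254. With 1 library left out, Agt ran between -0.0628 and 0.1998, Apc between -0.0444 and 0.149, Cdh1 between -0.102 and 0.345, Dnmt1 between -0.147 and 0.0206, Mbd4 between -0.0923 and 0.092, Ndufa12 between -0.127 and 0.0264, Tdg between -0.0825 and 0.0248, Tet2 between -0.0435 and 0.145, Tet3 between -0.159 and 0.00565 and Uhrf1 between -0.121 and 0.106. As plain differences of the 2 means, Ndufa12 ran between -0.126 and 0.00783, Tdg between -0.0941 and 0.0297 and Tet1 between -0.0925 and 0.00345.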

Other observations

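The 15 tested genes of the mitochondrial genome were all slightly higher in carriers, with a median log2 difference of 0.12, 0.13 for double-heterozygous against Tet1-null and 0.14 for Tdg-heterozygous against control. None passed the test (smallest unadjusted p = 0.301, limma). Together they made up 17.2%, 18.3% and 19% of summed FPKM (lowest, median and highest) in carriers, against 15%, 17.5% and 19.8% in Tdg wild types, so the sides overlapped. Without Tet1-null library 0 the median was 0.00184, and without the 3 libraries low in Wnt targets 14 were higher and 1 lower.

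The 5 tested genes of the Y chromosome were all higher in carriers (median 0.74). Xist was above 10 FPKM in 2 of 6 carriers and in 3 of 6 Tdg wild types, and the numbers were 0 of 3 double-heterozygous, 1 of 3 Tet1-null, 2 of 3 Tdg-heterozygous and 2 of 3 control libraries.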
